A study of Caenorhabditis elegans with 2 samples.

Results

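The 774 regions described here are the KLE-2 peaks on chromosome IV whose midpoints lie outside its piRNA domains, out of 6218 peaks in the whole list and 1126 on chromosome IV. They were chosen by position alone: a peak was kept when the mean of its first and last base was outside both 4.5 to 7 Mb and 13.5 to 17.2 Mb (WS220). The domain limits were given with the selection rule and were not derived from the peak list. This leaves 3 stretches of chromosome IV. The left end runs from base 1 to 4.5 Mb and held 364 peaks, the middle runs from 7 to 13.5 Mb and held 400, and the right end runs from 17.2 Mb to the end of the last peak at 17493060 and held 10. The 352 peaks inside the domains and the 4657 peaks on chromosomes I, II, III and V served as background.

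The peaks came from chromatin immunoprecipitation followed by sequencing (ChIP-seq), in which DNA crosslinked to a protein is recovered with an antibody and sequenced. The antibody was an affinity-purified rabbit polyclonal raised against KLE-2. The material was whole hermaphrodite Caenorhabditis elegans of genotype fem-2(b245)III, grown at 20 °C, so every value mixes germline and somatic cells. The stage label reads young adult with a germline, whereas the growth protocol describes gravid adults isolated by flotation. One strain supplied both the ChIP library and an input library, 1 of each, and the only values analysed here are the authors' peaks under the ChIP library.

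In condensin II the kleisin is KLE-2, the flexible chain that closes the ring formed by the complex's pair of SMC ATPases. Condensin II compacts chromosomes for mitosis and meiosis and is present in the nucleus before chromosomes condense. FEM-2 is a protein phosphatase of the sex determination pathway that promotes male fate, including the making of sperm. piRNAs are short germline RNAs that guide the Argonaute PRG-1 to silence foreign transcripts. In this species most piRNA genes lie in broad clusters on chromosome IV, and the stretches described here are the parts of that chromosome between and beyond those clusters.

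All values come from a single list, so replicate error could not be measured and samples could not be tested against each other. Intervals in brackets are exact 95% intervals for counting error (Poisson for densities, conditional binomial for ratios of densities, Clopper-Pearson for shares, order statistics for medians). They treat peaks as independent, but peaks were unevenly spaced. For peaks placed independently at one density, the variance of window counts equals their mean. In full 100-kb windows, variance over mean was 2.83 in the left end and 1.41 in the middle. It was 3.15 in the piRNA domains, 2.54 on the other autosomes and 0.5 over the 2 windows of the right end. Outside the right end, intervals for densities and their ratios are thus too narrow, and other intervals can be. A ratio whose interval stops just short of equal density does not set places apart. The list holds no read counts, and depth is unknown. Every difference below is therefore a description of where this list placed its peaks.

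The 3 stretches did not carry KLE-2 peaks at one density. The left end was the densest, with 80.9 peaks per Mb (72.8 to 89.6). The middle held 61.5 per Mb (55.7 to 67.9), and the right end held 34.1 per Mb (16.4 to 62.8). The left end had 1.31 times the density of the middle (1.14 to 1.52). By other measures the difference was smaller. Peaks covered 5.00% of the left end and 4.47% of the middle. With peaks joined across gaps of 2 kb or less, and single peaks counted too, there were 54.7 and 49.2 groups per Mb. The right end had 0.422 times the density of the left end (0.201 to 0.785), but its ratio to the middle, 0.554 (0.264 to 1.03), had an interval that reached 1.

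Peaks were denser outside the piRNA domains than inside them. The 3 stretches together held 68.5 peaks per Mb (63.8 to 73.5) against 56.8 in both domains (51.0 to 63.0), a ratio of 1.21 (1.06 to 1.37). That interval was not widened for uneven spacing. The difference in covered sequence was smaller: peaks covered 4.65% of the stretches and 4.36% of the domains, because the domain peaks had a mean width of 767 bp against 678 bp outside. The comparison also depended on which stretch was set against which domain. The left end exceeded the first domain by 1.24 times (1.03 to 1.50) and the second by 1.58 times (1.32 to 1.90). The middle had 0.944 times the density of the first domain (0.785 to 1.14) and 1.20 times that of the second (1.01 to 1.44), so it lay between its neighbours.

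Against the 4 other autosomes taken whole, which carried 71.6 peaks per Mb (69.6 to 73.7), the pooled stretches had a ratio of 0.957 (0.886 to 1.03). The left end lay above that level, at 1.13 times (1.01 to 1.26), and the middle below it, at 0.859 times (0.774 to 0.952). The right end lay lowest, at 0.476 times (0.228 to 0.877). These intervals were not widened for uneven spacing either. The excess of the left end depended on the background and on the weaker peaks. Without the sparse chromosome V the ratio was 0.985 (0.882 to 1.10), and among the stronger peaks of the list, those scoring above its median, it was 0.969 (0.821 to 1.14).

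The same places on the other autosomes put these levels in context. The first 4.5 Mb held 101 peaks per Mb on chromosome I, 94.9 on III, 65.1 on II and 43.8 on V, so the left end of IV lay below I and III and above II and V. The stretch at the same fractions of the chromosome as the middle of IV held 85.4 per Mb on III, 82.5 on I, 64.0 on II and 49.3 on V. The middle of IV lay below all of these but V, and its interval overlapped that of II (57.6 to 70.9). In the last 293 kb IV had the fewest, with 10 peaks against 14 on V, 19 on I, 20 on II and 37 on III. The intervals of the last 293 kb overlapped between IV, V, I and II, and that of III (88.9 to 174 per Mb) lay above that of IV. The first 293 kb of IV held 20 peaks, within the range of 17 to 38 on the other autosomes. Against the 4 matching places pooled, the ratio was 1.06 at the left end (0.943 to 1.19) and 0.904 in the middle (0.808 to 1.01). At the right end it was 0.444 (0.206 to 0.856), from 10 peaks. That interval did not reach 1, but it leaves out the spread between places. The 4 matching ends ran from 14 to 37 peaks, so it does not set the right end apart. Chromosome III gave that last background 37 peaks, the most of the 4, and no ratio at matching places was taken without it.

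**Figure D1:**
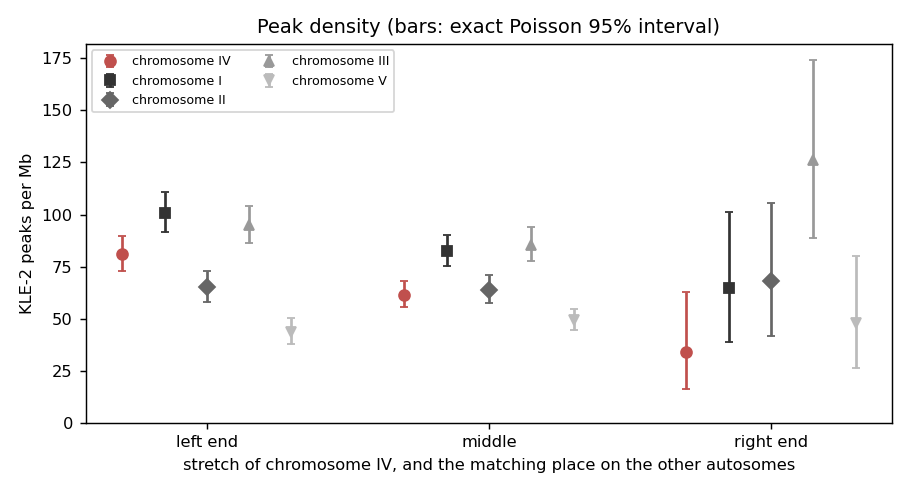
KLE-2 peaks per Mb (vertical axis, from 0) in the 3 stretches of chromosome IV (red circles) and at matching places on chromosomes I, II, III and V (grey symbols); bars are exact Poisson 95% intervals. Chromosome IV lies inside the range of the others at the left end (80.9 per Mb) and in the middle (61.5), and below the others at the right end (34.1).

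The drop from left end to middle was the largest among the 5 autosomes at these places, though not set apart by its interval. The left-to-middle density ratio was 1.31 on IV, 1.22 on I (1.07 to 1.40), 1.11 on III, 1.02 on II and 0.888 on V (0.744 to 1.06). The interval on IV overlapped those of I, II and III and lay above that of V.

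Density along each stretch was read in full windows of 500 kb. In the left end, the 9 windows held 25 to 61 peaks with a median of 42 and a mean of 40.4 ± 11.4 (SD, n = 9 windows, which are positions and not replicates). The most filled was 2.5 to 3 Mb, with 61 peaks, followed by 3 to 3.5 Mb with 49. The window right after it, 3.5 to 4 Mb, had the fewest, with 25. High and low windows thus lay side by side.

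Of the 13 windows of 500 kb in the middle, 8 held 25 to 27 peaks, and the mean was 30.8 ± 8.46 (SD, n = 13 windows). One window stood above the rest, 11 to 11.5 Mb with 54 peaks. The next were 13 to 13.5 Mb with 40 and 12 to 12.5 Mb with 37. Over the 4 other autosomes, 128 such windows held 5 to 72 peaks with a median of 37.

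Crowding was read in full windows of 100 kb, and a window with 15 or more peaks was counted as crowded. On the 4 other autosomes 5.25% of 648 windows were crowded. In the stretches 4 of 112 windows were, of which 3 of 45 lay in the left end, 1 of 65 in the middle and 0 of 2 in the right end. The share over the stretches, 3.57%, was thus not above the background. In the piRNA domains 3 of 62 windows were crowded, all of them in the first domain. At 12 or more peaks the counts were 8 of 45 in the left end and 5 of 65 in the middle, against 15.7% of windows on the other autosomes.

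The fullest window was 3.3 to 3.4 Mb in the left end, with 25 peaks, a number reached by 4 of the 648 windows on the other autosomes. Its peaks began at 3311150 and ended at 3399426, and 17 of the 25 had another within 2 kb. They were mostly weak: the median score was 119, and 8 of 25 exceeded the median of the whole list, 230. Its strongest peaks were one of 780 bp (3313138 to 3313917, score 2794) and one of 1667 bp (3384039 to 3385705, score 2613). None reached 3100, the value at which many scores were tied.

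The other crowded windows of the left end adjoined each other. The window from 2.6 to 2.7 Mb held 22 peaks with a median score of 248, and 19 of the 22 had a neighbour within 2 kb. The window from 2.7 to 2.8 Mb held 16 peaks with scores from 50.5 to 3100 and a median of 168. Together with the 25-peak window they held 63 of the 364 left-end peaks, 17.3%, on 6.67% of its length. Outside them the left end had 71.7 peaks per Mb (63.8 to 80.2), against 66.1 on the other autosomes without their own 34 crowded windows.

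The crowded window of the middle was 11.1 to 11.2 Mb, with 15 peaks. Its gaps ran from 45 bp to 23.6 kb, and its strongest members were a 960-bp peak (11142396 to 11143355, score 2271) and an 871-bp peak (11178788 to 11179658, score 1849). Next in number were 3 windows of 13 peaks, at 0.6 to 0.7 Mb and 1.9 to 2 Mb in the left end and at 11.4 to 11.5 Mb in the middle. The 4 crowded windows together held 78 members, of which 57 had a neighbour within 2 kb, 73.1%, against 40.1% of the 696 members outside them. Windows chosen for many peaks hold close neighbours by construction, so these counts, and those of the single windows above, are descriptions only.

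At the other extreme, windows with 2 or fewer peaks made up 13.1% of those on the other autosomes. They numbered 3 of 45 in the left end and 4 of 65 in the middle, 6.25% over all 112 windows of the stretches, against 12 of 62 in the piRNA domains. The 1 window of the stretches with no peak was 11.7 to 11.8 Mb. In the middle, 49 of 65 windows, 75.4%, held 3 to 8 peaks, against 53.3% in the left end and 52.3% on the other autosomes. The ratio of variance to mean of the window counts, which is 1 for peaks placed independently at one density, was 1.41 in the middle and 2.83 in the left end. At the same fractions of the other autosomes it was 1.19 on V, 1.26 on I, 1.71 on II and 2.50 on III, so the evenness of the middle was not particular to IV.

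**Figure D2:**
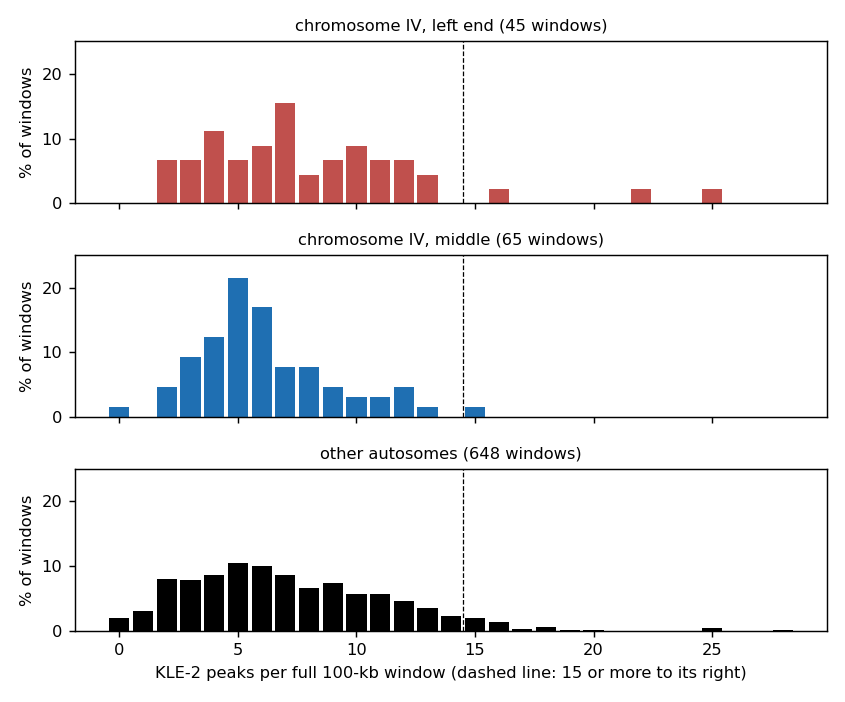
Share of full 100-kb windows (vertical axis, percent) by the number of KLE-2 peaks they hold (horizontal axis), for the left end and the middle of chromosome IV and for the 4 other autosomes; the dashed line marks windows of 15 or more. The left end spreads from 2 to 25 peaks per window, while the middle stays between 0 and 15.

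Spacing also differed between the left end and the middle. The share with a near neighbour, the gaps and the runs below all depend in part on density. They are therefore not separate from the difference in density above. On the other autosomes 46.5% of peaks had another peak within 2 kb, counted as bases between them. In the left end 193 of 364 did, 53.0% (47.8 to 58.2), and in the middle 141 of 400, 35.3% (30.6 to 40.2). The interval of the middle lay below those of the left end and of the pooled other autosomes (45.0 to 47.9). The same left-to-middle order was present on I, II and III. On V the left end had 37.6% and the middle 38.4%. The middle of IV had the lowest share of the 5 middles, but those of II (38.3%, 33.3 to 43.5) and V were within its interval.

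The gaps themselves showed the same contrast. Between consecutive peaks the median gap was 4.92 kb in the left end (3.86 to 5.88), 9.42 kb in the middle (7.27 to 11.3) and 5.94 kb on the other autosomes. Gaps of 500 bp or less made up 12.7% of those in the left end, 7.27% in the middle and 12.1% on the other autosomes. Long gaps were few in both: 16 of 363 exceeded 50 kb in the left end and 19 of 399 in the middle, 4.41% and 4.76%, against 5.01% on the other autosomes. In the piRNA domains 12 of 162 and 23 of 188 gaps did. The ratio of SD to mean of the gaps was 1.40 in the left end and 1.12 in the middle, and 1.18 to 1.48 in the matching middles of the other autosomes.

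**Figure D3:**
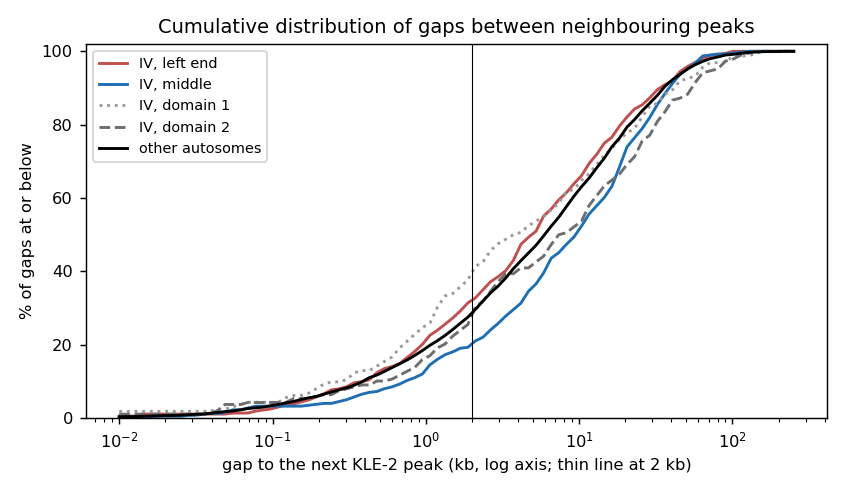
Cumulative share of gaps between neighbouring KLE-2 peaks (vertical axis, percent) by gap length (horizontal axis, kb, log scale), for the left end, the middle and both piRNA domains of chromosome IV and for the 4 other autosomes. At 2 kb the curve of the middle stands at 20.1%, below the left end at 32.5% and the other autosomes at 28.7%. At 51035 bp these curves lie close together, at 95.2 to 95.9%. The first and second domains are lower there, at 92.6% and 88.3%.

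Peaks were also joined into runs, in which each gap was 2 kb or less. Runs of 4 or more peaks took in 43 of the left-end peaks, 11.8% (8.68 to 15.6), and 16 of those in the middle, 4% (2.30 to 6.41). They took in 10.5% on the other autosomes (9.59 to 11.4), 30.1% in the first domain (23.1 to 37.7) and 10.1% in the second (6.16 to 15.3). The left end was thus close to the second domain and the other autosomes, and below the first domain. The longest run of the stretches had 8 peaks over 8.86 kb in the left end (689278 to 698141). It opened with a 2343-bp peak of score 501, and its other 7 peaks had scores of 54.2 to 131. No run in the middle exceeded 4 peaks, and there were 4 of that length, at 8572564 to 8582029, 10932916 to 10937594, 11197367 to 11202761 and 12252975 to 12257283. Single peaks with no neighbour within 2 kb inside the stretch made up 64.8% of the middle and 47.0% of the left end.

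The longest stretches without a peak were spread over the 3 parts. In the middle they were 113 kb long (11696156 to 11809538), 105 kb (10553486 to 10658332) and 96.2 kb (12932765 to 13028971). In the left end they were 97.0 kb (2398030 to 2495056) and 96.2 kb (1178231 to 1274402). The longest gap of the right end was 80.5 kb (17380726 to 17461186). The 113-kb gap began inside a 100-kb window of 11 peaks, at 11.6 to 11.7 Mb.

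Peaks of the left end were weaker than those of the middle by the authors' score, a value per peak whose scale the file does not name and which is used here only within this list. The median score was 198 in the left end (163 to 227), 285 in the middle (231 to 329) and 461 in the right end (103 to 1829), against 238 on the other autosomes (228 to 249). In the left end 160 of 364 peaks exceeded the median of the whole list, 44.0% (38.8 to 49.2), and in the middle 221 of 400 did, 55.3% (50.2 to 60.2). The same order held at the matching places of I, II and III, where left-end medians of 191, 150 and 199 stood against middle medians of 242, 310 and 294. On V the medians were 245 and 257, with overlapping intervals.

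The extra density of the left end lay among its weaker peaks. The list was cut into 4 classes of nearly equal size by score. In the lowest class the left end held 24.0 peaks per Mb and the middle 13.4, a ratio of 1.79 (1.34 to 2.41). The ratio was 1.51 in the second class (1.12 to 2.03) and 1.13 in the third (0.831 to 1.52). In the highest class the stretches held 17.6 and 18.0 per Mb, a ratio of 0.975 (0.724 to 1.31), and the other autosomes held 18.1. The middle lay below the other autosomes in the lowest class, with 0.773 times their density (0.614 to 0.962), and close to them in the highest, with 0.995 times (0.816 to 1.20).

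**Figure D4:**
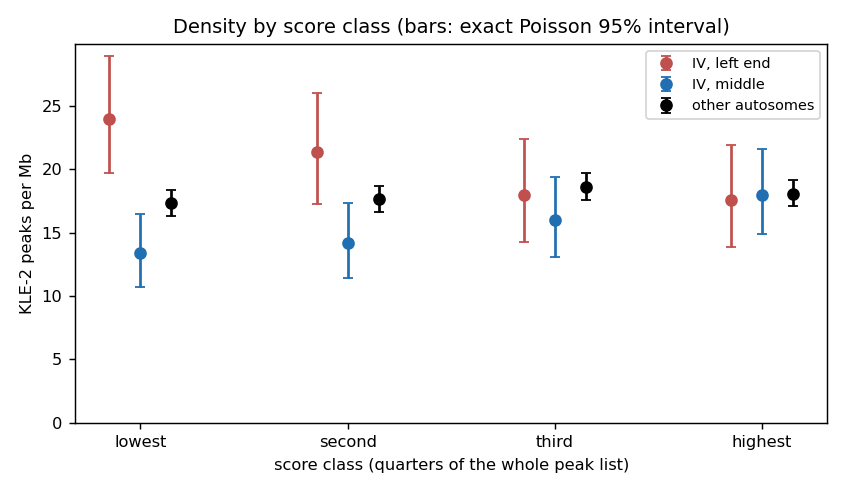
KLE-2 peaks per Mb (vertical axis) in 4 score classes, of nearly equal size in the whole list (horizontal axis), for the left end and middle of chromosome IV and for the 4 other autosomes; bars are exact Poisson 95% intervals. In the lowest class the left end stands at 24.0 and the middle at 13.4 per Mb, and in the highest class they stand at 17.6 and 18.0.

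This was not particular to IV. Counting peaks no stronger than the median score, the left-to-middle ratio was 1.65 on IV (1.34 to 2.02), 1.71 on II, 1.48 on III and 1.40 on I, while V had 0.947 (0.730 to 1.22). Counting the stronger peaks alone, it was 1.05 on IV (0.848 to 1.29) and 1.06 on I, and it was 0.848 on III, 0.838 on V and 0.605 on II. On II the stronger peaks were sparser in the left end (interval 0.477 to 0.764), which IV did not show.

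Widths followed the scores. The median width was 506 bp in the left end (477 to 531), 557 bp in the middle (532 to 583) and 615 bp in the right end (514 to 829), against 545 bp on the other autosomes (539 to 552). Peaks under 400 bp made up 23.6% of the left end (19.4 to 28.3) and 13.3% of the middle (10.1 to 17.0), with 18.2% on the other autosomes between them. Score and width rose together over the peaks of a stretch, with Spearman's rho of 0.862 in the left end, 0.829 in the middle and 0.515 over the 10 peaks of the right end. These are relations over peaks of 1 library that share the same caller, and on the other autosomes rho was 0.835.

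**Figure D5:**
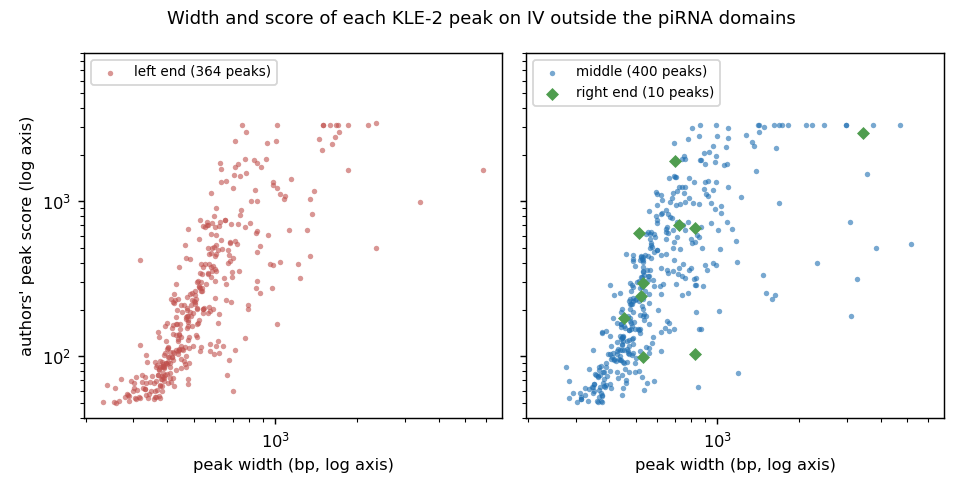
Authors' peak score (vertical axis, log scale) against peak width in bp (horizontal axis, log scale) for each of the 774 peaks; the left panel shows the left end, the right panel the middle (circles) and the right end (diamonds). Score rises with width up to the tie at 3100, and a few wide peaks, among them one of 5165 bp with a score of 532, lie below the main band.

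Peaks 2 kb or wider made up 2.47% of those on the other autosomes and 20 of the 774 members, 2.58% (1.59 to 3.96). They numbered 5 in the left end, 14 in the middle and 1 in the right end. The widest was 5847 bp in the left end (4416332 to 4422178, score 1602), with its midpoint 80.7 kb from the first domain. The next was 5165 bp in the middle (11070833 to 11075997), with a score of only 532. A 4706-bp peak followed at 8466807 to 8471512 with a score of 3100. Next came one of 3851 bp at 8578179 to 8582029 with 499.6, and one of 3736 bp at 12022062 to 12025797 with 3100. Width and score thus parted among the widest members. The 3 narrowest were in the left end, with 232 to 255 bp and scores of 50.5 to 65.6, close to the lowest score of the list, 50.1.

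Scores of 3100 or more, where the values were tied, were held by 2.40% of peaks on the other autosomes. Of the members 25 reached that level, 3.23% (2.10 to 4.73), with 10 in the left end and 15 in the middle. No peak of the right end did, which for 10 peaks gives an interval of 0 to 30.8%. In the second piRNA domain 19 of 189 did, 10.1% (6.16 to 15.3), and in the first 3 of 163. The interval of the second domain lay above that of the pooled stretches.

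Of the 10 peaks of the left end at 3100 or above, 6 lay between 1153623 and 1659633, at 1153623 to 1155212, 1344677 to 1346349, 1419698 to 1421192, 1439809 to 1441509, 1475945 to 1477804 and 1658883 to 1659633. Their widths were 751 to 1860 bp. The highest score in the stretch, 3212, belonged to a 2354-bp peak (2828370 to 2830723) that had no other peak within 20.5 kb. The second, 3124, belonged to a 1016-bp peak (3050123 to 3051138) with a neighbour at 1.74 kb. The others were at 2754485 to 2756673 and 3670469 to 3671968.

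In the middle, 4 of the 15 lay close together, at 11323784 to 11325517, 11325714 to 11327122, 11339383 to 11340995 and 11399881 to 11401694. The first 2 of these were separated by 196 bp. All 4 were in the 500 kb with the most peaks of the middle. The highest score of the stretch, 3108, was that of a 2231-bp peak (11913423 to 11915653) with its nearest neighbour 37.0 kb away. The remaining ones were scattered from 7039307 to the last peak before the second domain. Besides the 4706-bp and 3736-bp peaks above, they included one of 2983 bp at 10261666 to 10264648, one of 2464 bp at 9065998 to 9068461 and one of 2116 bp at 9410084 to 9412199.

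The share of strong peaks was close among members with and without a near neighbour. Of the 336 members with a neighbour within 2 kb, 11 were tied at 3100 or above, 3.27%, and of the 438 without one, 14 were, 3.20%. Their median scores were 233 (198 to 266) and 227 (192 to 289). On the other autosomes 44 of 2164 peaks with a near neighbour, 2.03%, and 68 of 2493 without one, 2.73%, were at 3100 or above. In the piRNA domains 5 of 178 peaks with a near neighbour and 17 of 174 without one were at that level.

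The right end held so few peaks that each can be given. From the domain outward, the first was 698 bp wide with a score of 1829 (17249525 to 17250222). A group of 4 followed, with gaps of 3.12 to 4.57 kb between its members: 453 bp with a score of 176 (17268600 to 17269052), 514 bp with 626 (17273621 to 17274134), 3433 bp with 2741 (17278059 to 17281491) and 530 bp with 98.8 (17284611 to 17285140). A pair followed with 1.83 kb between its members, 725 bp with a score of 703 (17330899 to 17331623) and 524 bp with 245 (17333451 to 17333974). The last 3 stood alone: 829 bp with 674 (17379897 to 17380725), 532 bp with 296 (17461187 to 17461718) and 827 bp with 103 (17492234 to 17493060). Of the 10 peaks 7 exceeded the median score of the list, 70.0% (34.8 to 93.3), an interval too wide to set it apart from the middle. At the opposite tip, the first peak of the left end began at base 1, had a score of 421 and lay 50.8 kb from the next.

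The peaks on either side of each domain limit varied in width and score. At the left limit of the first domain, the last member was 1365 bp wide with a score of 828 (4470742 to 4472106), and the first peak inside was 339 bp with 62.2 (4510830 to 4511168). At its right limit, the last inside was 495 bp with 151 (6977041 to 6977535) and the first member beyond was 450 bp with 133 (7016533 to 7016982). At the left limit of the second domain, the last member was 2980 bp with 3100 (13462121 to 13465100). The first peak inside spanned the limit itself, with 806 bp and a score of 972 (13499838 to 13500643). At the right limit, a 440-bp peak with a score of 195 (17155579 to 17156018) preceded the first peak of the right end.

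Near the limits the intervals of both sides overlapped. Within 250 kb of a limit there were 72.0 peaks per Mb outside (56.3 to 90.7) and 75 inside (59.0 to 94.0). Between 250 and 500 kb there were 61.8 outside (45.7 to 81.7) and 79.0 inside (62.5 to 98.5). Between 500 and 1000 kb there were 54.7 outside (43.5 to 67.9) and 52.5 inside (42.9 to 63.6). Between 1000 and 2000 kb there were 76.7 per Mb outside (67.1 to 87.2) and 42.3 inside (34.1 to 51.8). That outer band held all 3 crowded windows of the left end, with 63 of its 230 peaks. Without them its density was 61.9 per Mb (52.8 to 72.0). Crowded windows were not taken out of the inside bands. The first domain had 3 of them, and the 500 kb before its right limit held 54 of its 163 peaks. From 2000 to 3250 kb outside, density was 66.9 per Mb (58.9 to 75.8), and no part of a domain lies that far from its limits. Left-end peaks farther than 3250 kb from the first domain fell in none of these bands.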

How the data were processed

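The authors deposited 1 list of peaks with their limits and scores. BWA was the aligner and ce10 the build, per the submitters' processing notes. The peaks are MACS calls on WormBase WS220, per the file headers and columns. How MACS was run (version, threshold, control, pooling) is not given in the sources used here. No scale is named for the deposited score. Its values start at 50.1, and many are tied at 3100, so the score does not rank those peaks. Read depth is unknown.

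Each peak was assigned by its midpoint, and chromosome length was taken as the end of the last peak. A gap is the number of bases between a peak and the next. Windows ran from base 1 and had to lie wholly in a stretch. Matching places were the first 4.5 Mb, the same fractions of the chromosome for the middle, and the last 293 kb. Intervals and functions were tested on simulated data. No resampling or p-value was used. Named peaks were the 8 highest scores in the left end and in the middle (ties ordered by width and position), every peak of the right end, the 5 widest and 3 narrowest, those beside the domain limits, the longest gaps and runs, and the fullest windows. Further peaks tied at 3100, and single peaks of a crowded window, were named after their values were seen. The members, lists and thresholds were chosen with earlier results of these data known. No gene was assigned and no sequence read, since no WS220 genome or annotation was used here. Alternatives were a score cut, merging within 500 bp, removal of the widest 1%, covered bases, moved domain limits, other windows, other neighbour distances and other backgrounds. The tools were scipy 1.17.1, pandas 2.3.3, numpy 2.4.6 and matplotlib 3.10.9 under Python 3.11.15.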

Additional observations from a re-analysis of the deposited data

How the results depend on the processing

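Of 56 alternatives, 45 kept the value within its counting interval or, for crowded windows, within a set range around the main count. The left-end to other-autosome ratio turned from 1.13 to 0.969 when only the stronger part of the list (score above the median) was kept, and to 0.985 without chromosome V in the background; the cause was not tested. Without V the middle ratio was 0.749. The intervals of the left-end ratio reached 1 after merging (0.998 to 1.26), at matching places (0.943 to 1.19), without crowded windows on either side (0.962 to 1.22), with wider domains (0.994 to 1.24) and without II (0.994 to 1.24). Those of the middle ratio reached 1 in the first 3 of these (upper ends 1.01), for stronger peaks (1.06) and without I (1.02) or III (1.03). For stronger peaks the right-end ratio was 0.651 (0.261 to 1.34). With the domains widened by 250 kb at every limit except that at 17.2 Mb, outside to inside was 1.13 (0.995 to 1.27). Crowded windows numbered 13 at 12 or more peaks and 2 after merging of peaks within 500 bp, which lowers counts by construction. The share of members with a neighbour was 29.2% within 1 kb, 64.3% within 5 kb and 31.8% after merging. With that stronger part, the median width was 701 bp and the share at the score ceiling 6.44%. Leaving out single autosomes and crowded windows was chosen after seeing the data. No paired analysis was possible because values were at hand for a single library, the ChIP, which also leaves no replicate to omit. Sites below the threshold used by the authors are not in the list, and depth limits which ones are.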

Other observations

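Scores of neighbouring peaks were compared in the middle. Spearman's rho between the scores of a peak and the next was 0.295 over 80 pairs within 2 kb and -0.0576 over 319 pairs farther apart. In the left end the values were 0.0281 over 118 pairs and 0.100 over 245. On the other autosomes they were 0.144 over 1334 pairs and 0.0218 over 3319. The pairs share peaks and come from 1 library, and these weak relations are given as descriptions only.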
